A study of Mus musculus with 18 samples.

Results

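The genes described here are the protein-coding genes of mouse chromosome 3 whose start lies from 30 to 110 Mb on mm10. They were chosen by position and by a total of at least 180 counts over 18 RNA-seq samples, and 2 further genes, *Fcgr1* and *Csf1*, were left out by name. This gave 408 genes of the 20615 in the deposited table. The interval holds 488 protein-coding genes in that table, of which 78 had a lower total. *Dcst1* lay just under the limit with 179.88 counts and *Ankrd35* just over it with 181. *Mynn* was the first gene inside the interval and *Vav3* the last.

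The samples were bone marrow-derived macrophages (BMDMs), which are macrophages grown from bone marrow cells in medium with M-CSF, here for 7 days. They came from C57BL/6 (B6) mice and from C57BL/6.NOD-Aec1Aec2 mice, here SjSS, a strain with chromosome segments from the NOD mouse in an otherwise B6 genome. All mice were female and 7 to 12 weeks old. BMDMs of each strain served as untreated controls, received apoptotic cells (ACs), or were stimulated with CpG DNA, which TLR9 senses. The ACs were thymocytes killed with dexamethasone, added at 5 per BMDM for 2 h and washed off, with a further incubation of 3 h by the labels and 4 h by the study's methods. CpG was used at 1 µM for 6 h. Each of the 6 groups had 3 samples. The study counts 3 mice per strain, but the sources used here do not say whether samples of the same number in different treatments shared a mouse, nor which strain's thymocytes a sample was given, so the p values measure the spread between these samples only.

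A congenic strain differs from its background strain in the segments transferred by crossing, together with flanking DNA that came along. Genes inside such a segment can carry different regulatory or coding alleles in every cell, whereas genes elsewhere can differ between the strains through other genes or through the environment. Chromosome 3 is of interest because Aec1 corresponds to the diabetes locus Idd3, the region of the cytokine gene *Il2*. The limits of the NOD segments were not given in the sources used here, and the reads of both strains were aligned to the B6 reference, so that reads from NOD alleles can carry mismatches to it. The part of such mismatches in the values was not tested.

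The upstream sequences of 4 of the genes are shown because these genes differed between the strains in each of the 3 treatments, as described further down. *Lce1g* and *Ptgfrn* are among the most higher and most lower of these genes by mean difference, and *Nes* and *Gpr160* were added after their values were seen because they share no long sequence with another gene. *Hist2h2bb*, *Hist2h2aa2*, *Gnb4* and *Ppm1l* were looked up too. Each sequence holds the 250 bases before the start of transcription in RefSeq on GRCm38.p6, which is the B6 reference and not the NOD allele, and is written 5′ to 3′ on the strand of the gene. Capitals mark a match to one of 4 motifs that were searched on both strands. These were TATAAA (the TATA box), the NF-kB motif, the interferon response motif and GAGGAA (PU.1, a factor of the macrophage lineage).
*Gpr160*, chr3:30855700-30855949, + strand: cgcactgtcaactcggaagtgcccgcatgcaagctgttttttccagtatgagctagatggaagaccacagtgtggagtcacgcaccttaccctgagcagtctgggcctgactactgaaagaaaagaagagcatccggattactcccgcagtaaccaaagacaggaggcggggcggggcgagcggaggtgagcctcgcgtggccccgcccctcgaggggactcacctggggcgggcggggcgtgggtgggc
*Nes*, chr3:87970843-87971092, + strand: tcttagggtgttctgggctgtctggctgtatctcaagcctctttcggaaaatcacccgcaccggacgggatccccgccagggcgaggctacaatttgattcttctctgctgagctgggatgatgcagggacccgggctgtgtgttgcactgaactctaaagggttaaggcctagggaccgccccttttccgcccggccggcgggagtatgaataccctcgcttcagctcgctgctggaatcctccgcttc
*Lce1g*, chr3:92752339-92752588, - strand: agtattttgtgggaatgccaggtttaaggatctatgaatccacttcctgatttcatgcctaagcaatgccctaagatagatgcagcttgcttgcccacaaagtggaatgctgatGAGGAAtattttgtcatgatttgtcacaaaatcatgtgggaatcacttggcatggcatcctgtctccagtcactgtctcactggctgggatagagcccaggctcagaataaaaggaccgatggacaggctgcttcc
*Ptgfrn*, chr3:101110167-101110416, - strand: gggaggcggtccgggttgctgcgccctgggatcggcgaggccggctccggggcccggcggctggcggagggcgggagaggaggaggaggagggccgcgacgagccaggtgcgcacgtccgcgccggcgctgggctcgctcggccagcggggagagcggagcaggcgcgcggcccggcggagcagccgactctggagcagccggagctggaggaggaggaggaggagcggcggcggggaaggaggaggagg
The sequence of *Lce1g* held GAGGAA once, starting 136 bases upstream, and none of the 4 motifs was found in the windows of the other 3. Over 32851 promoters of this length, 12.4% held TATAAA, 0.356% the NF-kB motif, 2.98% the interferon response motif and 23.3% GAGGAA. Of the 408 genes, 335 had an entry in the RefSeq table. The share of G and C was 79.2% in the window of *Ptgfrn* and 46% in that of *Lce1g*.

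The deposited values were estimated counts, not normalized, with totals of 30688336 to 57139662 counts per sample. The chromosome 3 genes took 2.47 to 2.79% of them. Macrophage markers (*Adgre1*, *Itgam*, *Csf1r*, *Cd68*, *Lyz2* and *Mertk*, all 6 measured) summed to 14700 to 22700 CPM (counts scaled to the library total) over all samples, and none of the 6 was at 0 in any group. Stromal markers (*Col1a1*, *Col1a2*, *Col3a1*, *Dcn* and *Pdgfrb*, all 5 measured and none at 0 in any group) summed to 152 to 237 CPM in SjSS and 41.2 to 136 CPM in B6 samples, with no overlap between the strains. *Col1a1* and *Col1a2* made up most of the sum. In counts not scaled to depth, *Col3a1* had 1281 in control SjSS and 1347 in control B6. It had 1430 and 1996 with ACs, and 1180 and 1023 with CpG. Library totals were 30688336 to 49362554 counts in control SjSS and 45180431 to 57139662 in control B6 samples. The control counts of *Col3a1* therefore do not show a lower level in SjSS. With ACs, library totals were 46212590 to 57053309 counts in SjSS and 43846598 to 51755351 in B6 samples. The lower AC count of *Col3a1* in SjSS thus did not go with smaller totals, and it ran opposite to the marker sum. *Dcn* and *Pdgfrb* had more counts in SjSS in each treatment (56 against 33 and 660 against 599 in control). T lineage markers summed to 13.2 to 17.9 CPM in AC treated SjSS samples and 4.17 to 4.59 CPM in AC treated B6 samples, most of it *Cd4*. Without ACs they summed to 10.1 to 11.5 CPM in control SjSS and 7.91 to 9.77 CPM in control B6 samples. With CpG it was 6.3 to 8.21 and 4.7 to 5.94 CPM. *Cd3d*, *Cd3e*, *Cd3g* and *Trac* each had at most 17 counts in any group. In bulk samples, fewer cells of a type and less RNA per cell cannot be told apart.

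The strain difference was measured in each treatment as SjSS over B6. All 15789 genes that passed a filter on low counts entered a single fit, tested by quasi-likelihood in edgeR and adjusted by Benjamini-Hochberg, and all 408 chromosome 3 genes were among them. A gene was called where the adjusted p was under 0.05 and the log2 fold change over 1.3 in size, the thresholds of the study's methods. In control BMDMs 12 of the 408 genes were called higher and 8 lower in SjSS, or 4.9%, where 2.01% of all genes tested were called (1.3% higher and 0.716% lower). With ACs, 31 were called higher and 10 lower (10%, against 8.93% of all genes, 6.24% higher and 2.69% lower). With CpG, 18 were called higher and 10 lower (6.86%, against 2.61%, which is 1.82% higher and 0.792% lower). Thus the share called was above that of all genes in control and CpG and close to it with ACs. In total 53 of the genes were called in at least 1 of the 3 comparisons and 355 in none. By adjusted p alone, without the limit on the fold, 54 genes were higher and 74 lower in control, or 31.4% (19.6% of all genes, 9.04% higher and 10.6% lower). With ACs 118 were higher and 115 lower, or 57.1% (49.4% of all genes, 24.0% higher and 25.5% lower), and with CpG 68 were higher and 69 lower, or 33.6% (19.7%, 10.2% higher and 9.57% lower). For the mean it was 50.7% (39.0% of all genes, 19.9% higher and 19.1% lower). Over the mean of the 3 treatments, 14 were called higher and 7 lower (5.15%, against 2.58%, which is 2.01% higher and 0.576% lower). The median log2 fold change of the 408 genes was -0.03 in control, 0.02 with ACs and 0.00 with CpG, beside -0.01, -0.05 and 0.01 over all genes.

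**Figure D1:**
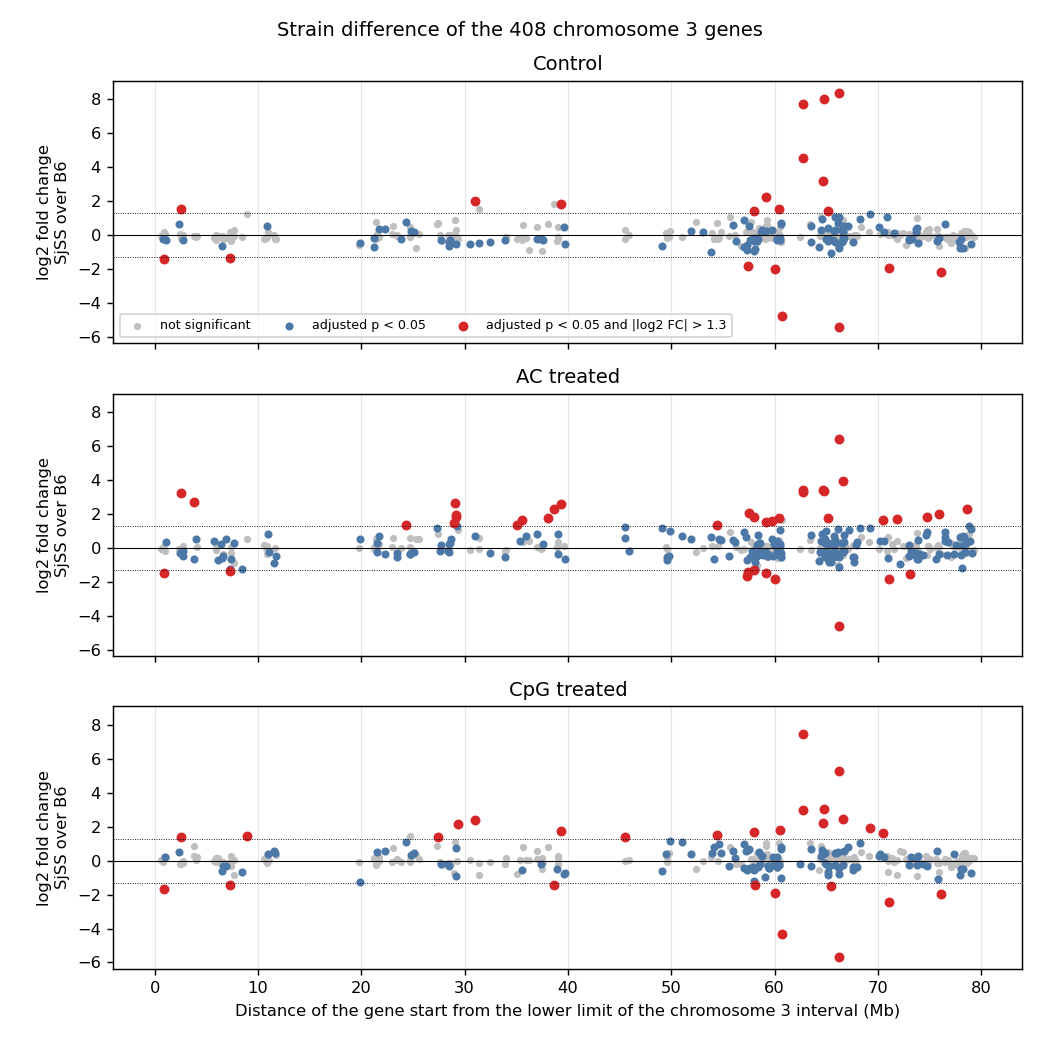
Log2 fold change (SjSS over B6) of each of the 408 genes against the distance of its start from the lower limit of the interval, in control, AC treated and CpG treated BMDMs. Grey points had an adjusted p of 0.05 or more, blue points a lower one, and red points also passed the dotted lines at a log2 fold change of 1.3 in size. Red points reach 8.38 in control (*Hist2h2bb*), a size that rests on 0 counts in B6 and is no bound. They are denser with ACs, where 10% of the genes were called, against 8.93% of all genes tested.

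The genes were unevenly spread, and the strain differences more so. In bins of 10 Mb, the number of genes was 37 at 30 to 40 Mb, 12 at 40 to 50 Mb, 40 at 50 to 60 Mb, 29 at 60 to 70 Mb, 10 at 70 to 80 Mb, 84 at 80 to 90 Mb, 111 at 90 to 100 Mb and 85 at 100 to 110 Mb. In control BMDMs the genes called were found in 5 of these 8 bins. There were 3 called of 37 at 30 to 40 Mb (8.11%), 2 of 29 at 60 to 70 Mb (6.9%), 3 of 84 at 80 to 90 Mb (3.57%), 10 of 111 at 90 to 100 Mb (9.01%) and 2 of 85 at 100 to 110 Mb (2.35%). No gene was called at 40 to 60 Mb or at 70 to 80 Mb. With ACs the bins were more alike. The share called lay between 9.01% and 17.2% in the 6 bins with a call, with the highest at 60 to 70 Mb (5 of 29, all higher). With CpG it was highest at 90 to 100 Mb and 30 to 40 Mb (both 10.8%), followed by 60 to 70 Mb (10.3%) and 70 to 80 Mb (10%, which is 1 of 10 genes).

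A further measure was the number of genes with an adjusted p under 0.05 in the same direction in all 3 strain comparisons. These share no sample, but they share 1 estimate of the spread and may share mice. They are therefore not 3 separate replications. This held for 44 of the 408 genes (10.8%, against 3.18% of all genes tested), 21 of them higher and 23 lower in SjSS (1.96% and 1.22% of all genes). Of the 44, 21 stayed under a log2 fold change of 1 in size in each treatment. When only the compared groups entered each fit, the 44 became 28 genes, 10 of them at 90 to 100 Mb in place of 22. The share of all genes was not taken for those fits, so whether the 28 stand above it was not tested. The 3.18% and the window ranks below belong to the fit of all groups. By bin, in the fit of all groups, they numbered 22 of 111 at 90 to 100 Mb (19.8%), 12 of 84 at 80 to 90 Mb (14.3%), 4 of 37 at 30 to 40 Mb (10.8%) and 3 of 29 at 60 to 70 Mb (10.3%). The other bins had 1 of 40 at 50 to 60 Mb, 2 of 85 at 100 to 110 Mb, and none at 40 to 50 and 70 to 80 Mb. On the rest of chromosome 3, 7 of 187 genes chosen in the same way did so (3.74%). They included 3 of 23 genes at 10 to 20 Mb (13%), a share above those at 30 to 40 and 60 to 70 Mb. The other bins outside the interval had at most 4.17%. Among 212 windows of 10 Mb over the genome with at least 20 protein-coding genes that passed the same limits, *Fcgr1* and *Csf1* included, the window at 90 Mb of chromosome 3 ranked 5 and that at 80 Mb ranked 7. The 200 windows on other chromosomes had a median of 2.63% and a highest share of 30% (on chromosome 1, where the strain's other NOD segment lies), and the 186 windows on neither chromosome had a median of 2.455% and a highest share of 21.7%. The 54 genes (13.2%) whose SjSS and B6 samples did not overlap, the same way in each of the 3 treatments, stood against 5.50% of all genes tested (for single comparisons the samples did not overlap for 41.4% of the 408 genes in control, 66.7% with ACs and 51.2% with CpG, against 34.4, 60.7 and 34.2% of all genes), and 27 of them lay at 90 to 100 Mb.

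**Figure D2:**
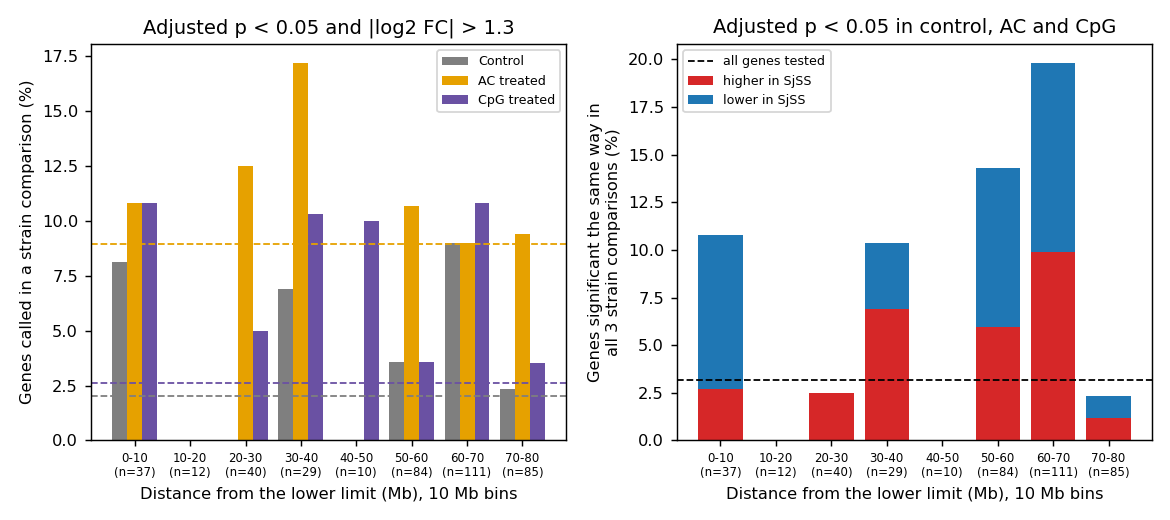
Left, share of genes called in each 10 Mb bin in control, AC treated and CpG treated BMDMs, with dashed lines at the share of all genes tested in the same comparison (2.01, 8.93 and 2.61%). Right, share of genes with an adjusted p under 0.05 in the same direction in all 3 comparisons, by direction, which was highest (19.8%) in the bin 60 to 70 Mb from the lower limit, beside 3.18% of all genes tested. Bins are given as the distance from the lower limit of the interval, with the number of genes in each.

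Along the chromosome, the same-way differences were most frequent from *Kirrel* (start 87078593) to *Ptgfrn* (start 101040232), but with gaps. Of the 185 genes in these 14 Mb, 34 differed the same way in all 3 comparisons (18.4%), 15 higher and 19 lower. Between *Iqgap3* and *Tpm3*, 1.99 Mb apart, lay 51 genes of the set with none, and between *Dennd4b* and *Lce1g*, 2.48 Mb apart, 15 with none. Beyond *Ptgfrn*, none of the 77 genes from *Igsf3* (start 101377083) to *Vav3* (start 109340653) did so, whereas 10 of the 146 genes before *Kirrel* did (6.85%). These limits were set after the values were seen and the counts are a description. The next gene of the set after *Ptgfrn*, *Igsf3*, encodes an immunoglobulin superfamily protein as *Ptgfrn* does. It had log2 fold changes of 0.04, 0.24 and 0.16 in control, AC and CpG with adjusted p of 0.939, 0.495 and 0.764. In single comparisons the share of these 77 genes with an adjusted p under 0.05 was near that of all genes, at 22.1% in control (19.6% of all genes), 51.9% with ACs (49.4%) and 19.5% with CpG (19.7%). A DESeq2 fit, edgeR with DESeq2's size factors, a block for the replicate number, fits of the compared groups only and each of the 18 fits without 1 sample also gave 0 same-way genes beyond *Ptgfrn*. *Ptgfrn* was picked as the last such gene, and these fits reuse the same samples. They are therefore no separate evidence for a limit at this place.

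Many genes of the interval share sequence with copies elsewhere, and the authors' method divides reads between copies. Of the 408 genes, 114 share more than 10% of their 31-base words with another gene of the GENCODE M21 annotation. Among the other 294, 30 differed the same way in all 3 comparisons (10.2%). In the bin at 90 to 100 Mb it was 11 of 74 such genes (14.9%), and from *Kirrel* to *Ptgfrn* 22 of 127. Of the 12 genes that were called in the same direction in all 3 comparisons (2.94%, against 0.652% of all genes tested), 8 higher (0.481%) and 4 lower (0.171%), 5 shared at most 10% of their words. These were *Gnb4*, *Ppm1l* and *Nes*, all higher in SjSS, and *Gpr160* and *Ptgfrn*, both lower.

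*Gnb4* (start 32580332) encodes a beta subunit of heterotrimeric G proteins, which carry signals from G protein-coupled receptors. It stood at 6.12, 5.55 and 6.57 CPM in control B6 and at 17.3, 21.2 and 14.6 CPM in control SjSS samples. With ACs it was at 6.59, 7.04 and 8.54 CPM in B6 and at 68.1, 66.5 and 70.5 CPM in SjSS samples. With CpG it was at 4.39, 5.96 and 6.13 CPM in B6 and 17.5, 13.6 and 12.5 CPM in SjSS samples. No B6 sample of any treatment reached the lowest SjSS sample. The log2 fold changes were 1.53 (SE 0.15, adjusted p = 8.09e-07) in control, 3.21 (SE 0.15, adjusted p = 2.08e-12) with ACs and 1.41 (SE 0.15, adjusted p = 2.91e-06) with CpG, where it was 1.26 without B6 CpG replicate 1 and 1.25 without SjSS CpG replicate 1. The gene also responded to ACs differently in the 2 strains, rising by a log2 fold change of 1.96 in SjSS (adjusted p = 4.01e-10), with 0.28 in B6 (adjusted p = 0.169), an interaction of 1.68 (SE 0.20, adjusted p = 2.61e-06).

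*Ppm1l* (start 69316861), a metal-dependent protein phosphatase, showed 1.73, 1.08 and 1.17 CPM in control B6 and 5.29, 4.14 and 4.77 CPM in control SjSS samples. With ACs the B6 samples had 0.953 to 1.14 and the SjSS samples 5.97 to 6.42 CPM, and with CpG they had 0.739 to 0.988 and 2.56 to 3.09 CPM. The strains did not overlap in any treatment. The log2 fold change was 1.82 (SE 0.17, adjusted p = 4.81e-07) in control, 2.57 (SE 0.17, adjusted p = 4.77e-10) with ACs and 1.72 (SE 0.18, adjusted p = 2.75e-06) with CpG.

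*Nes* (start 87971078) encodes nestin, an intermediate filament protein known from neural progenitors, vessels and other mesenchymal cells. Control samples had 12.8, 8.95 and 12 CPM in B6 and 25.2, 33.4 and 31.3 CPM in SjSS. With ACs they had 12.3, 10.7 and 9.83 CPM and 35.1, 40.8 and 41 CPM, and with CpG 6.41, 4.93 and 7.37 CPM and 19.2, 19.2 and 21.2 CPM. SjSS samples were higher throughout, with log2 fold changes of 1.41 (SE 0.14, adjusted p = 1.14e-06), 1.83 (SE 0.14, adjusted p = 2.6e-09) and 1.67 (SE 0.15, adjusted p = 2.91e-07). Without B6 control replicate 2 the control value was 1.27, below the limit on the fold. The summed level of the stromal markers named above was also higher in every SjSS sample, and its part in the *Nes* difference was not tested.

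*Gpr160* (start 30855950), an orphan G protein-coupled receptor, was lower in SjSS. Its values in control were 4.42, 4.63 and 3.73 CPM in B6 and 1.22, 1.33 and 2.19 CPM in SjSS samples. They were 1.59, 2.14 and 1.83 CPM against 0.982, 0.526 and 0.516 CPM with ACs, and 1.47, 1.07 and 1.5 CPM against 0.562, 0.371 and 0.343 CPM with CpG. The strains were apart in each treatment, although both were lower after treatment than before. The log2 fold changes were -1.42 (SE 0.25, adjusted p = 0.000489), -1.47 (SE 0.28, adjusted p = 0.000235) and -1.66 (SE 0.31, adjusted p = 7e-04). Without SjSS control replicate 1 the control value was -1.25, past the adjusted p but not the fold.

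*Ptgfrn* (start 101040232) encodes an immunoglobulin superfamily membrane protein that binds tetraspanins. Control samples had 78.5, 59.1 and 57.4 CPM in B6 and 15.8, 18 and 17.7 CPM in SjSS. AC treated samples had 49.9, 30.1 and 26.5 CPM in B6 and 9.74, 9.55 and 10.1 CPM in SjSS, and CpG treated samples 44, 37.3 and 37.6 CPM and 6.25, 7.98 and 8.04 CPM. No SjSS sample reached the lowest B6 sample of any treatment. The log2 fold changes were -1.93 (SE 0.18, adjusted p = 4.36e-07), -1.86 (SE 0.18, adjusted p = 9.3e-08) and -2.42 (SE 0.19, adjusted p = 4.93e-08).

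**Figure D3:**
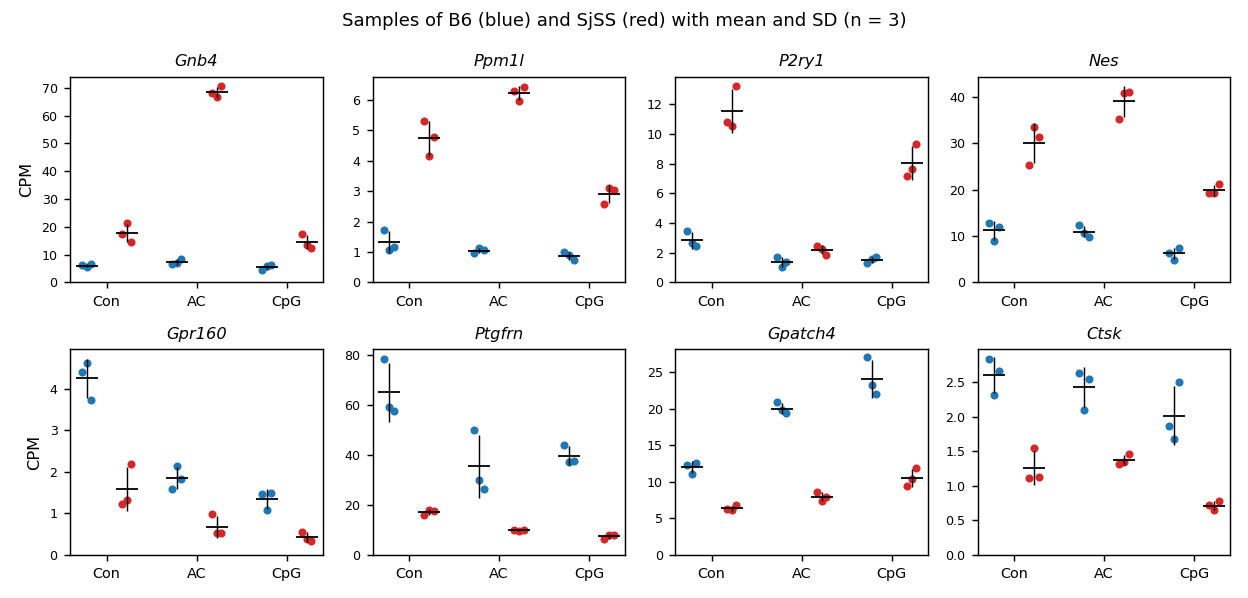
CPM of 8 genes in each sample of B6 (blue) and SjSS (red) in control, AC and CpG, with the mean and SD of 3 samples. *Gnb4*, *Ppm1l*, *P2ry1* and *Nes* were higher and *Gpr160*, *Ptgfrn*, *Gpatch4* and *Ctsk* lower in SjSS in each treatment, while *P2ry1* fell to 1.88 to 2.45 CPM in AC treated SjSS samples.

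The other 7 of the 12 genes have close copies. *Tpm3* (start 90072649), one of the tropomyosins that wind along actin filaments, shares 26.86% of its words with *Tpm3-rs7*, a copy on chromosome 14 (start 113314608). *Tpm3* was at 464, 446 and 408 CPM in control B6 and 108, 106 and 112 CPM in control SjSS samples, with log2 fold changes of -2.01, -1.83 and -1.93 in control, AC and CpG (adjusted p = 7.19e-14, 4.28e-14 and 1.02e-13). *Tpm3-rs7* went the other way, with 306 to 308 CPM in control B6 and 618 to 655 CPM in control SjSS samples. The sum of both genes was 746 ± 27.8 CPM in control B6 and 750 ± 18 CPM in control SjSS (SD, n = 3), with a log2 fold change of 0.01 (adjusted p = 0.936). For the sum it was 0.34 with ACs (adjusted p = 1.86e-05) and -0.06 with CpG (adjusted p = 0.46). So the lower *Tpm3* value was met by a higher value of its copy on another chromosome, and the total of the pair did not pass the test as lower in any treatment.

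The histone genes behaved partly alike. *Hist2h2aa2* (start 96239749), an H2A gene whose words are all found in other annotated genes, was lower in SjSS, with log2 fold changes of -5.38 in control, -4.57 with ACs and -5.67 with CpG (adjusted p = 3.34e-05, 1.67e-05 and 1.9e-05). Control B6 samples had 7.35, 8.43 and 3.57 CPM and control SjSS samples 0.35, 0 and 0.0544 CPM. Summed with the neighbouring copy *Hist2h2aa1*, the log2 fold change was -0.45 in control, -0.37 with ACs and -0.91 with CpG (adjusted p = 0.0096, 0.0123 and 2.05e-05). This sum leaves out *Gm20632* and *Gm20633*, which overlap *Hist2h2aa2* and *Hist2h2aa1* on the other strand and share all of their words. *Hist2h2bb* (start 96269752), an H2B gene, had 0 counts in control and AC treated B6 samples and 125 and 29 counts over the 3 SjSS samples. With B6 set to 3 counts per group as the floor, it was at least 48.5-fold higher in control and at least 10.9-fold higher with ACs. With CpG, 90 counts stood against 2, a ratio of 46.6 with an exact 95% interval of 12.5 to 390, and these bounds and intervals cover counting error only. The overlapping gene *Gm20628* was higher in SjSS too, so that their sum differed by 5.73, 5.85 and 5.25 on the log2 scale.

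**Figure D4:**
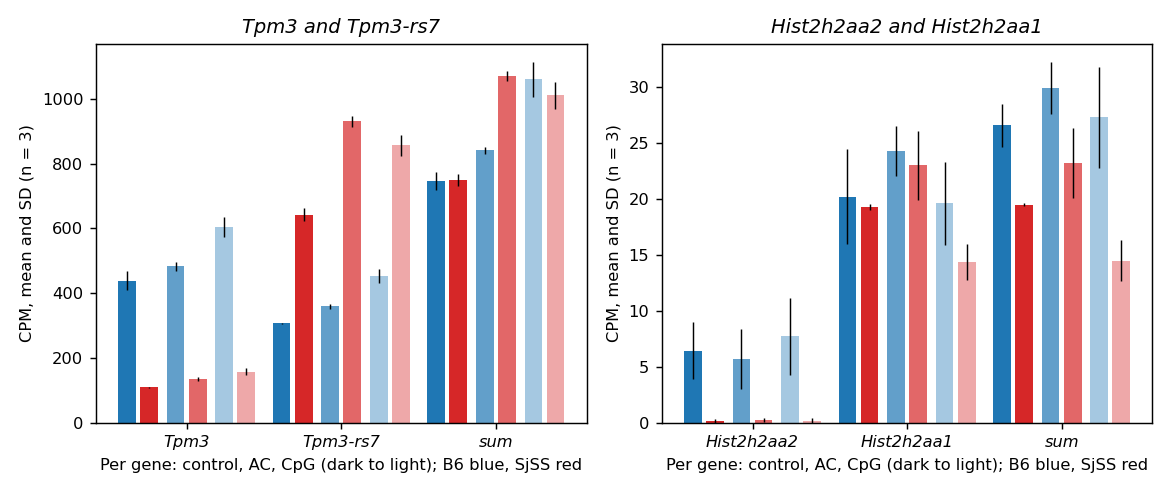
Mean CPM with SD of 3 samples for *Tpm3* and *Hist2h2aa2*, for the copy of each (*Tpm3-rs7* and *Hist2h2aa1*) and for their sum, in control, AC and CpG. *Tpm3* was lower and *Tpm3-rs7* higher in SjSS in each treatment and their sum in control was nearly equal (746 and 750 CPM), whereas *Hist2h2aa1* was at 20.2 CPM in control B6 and 19.3 CPM in control SjSS beside the low *Hist2h2aa2*.

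The remaining 4 genes were barely expressed. *Lce1g* and *Lce1h*, of the late cornified envelope cluster that is known from the epidermis, had 11 and 0 counts over the control B6 samples and 232 and 79 over the control SjSS samples. With CpG, *Lce1g* had 0 counts in B6 and 60 in SjSS, which makes it at least 20.7-fold higher. The log2 fold changes of the 2 genes summed were 4.99, 3.33 and 4.72. *Cgn*, which encodes the tight junction protein cingulin, had 0 counts in control B6 and 101 in control SjSS samples, or at least 39.2-fold more. With the reads of *BC021767* (start 94661830), which shares 20.25% of its words, the log2 fold change was 1.74, 1.37 and 1.87. *Selenbp2*, a selenium-binding protein gene, was called higher alone, with log2 fold changes of 3.22, 3.39 and 2.21, but with its far more abundant copy *Selenbp1* the values were 0.21, 0.54 and 0.48 (adjusted p = 0.278, 0.00243 and 0.0237). Its call with CpG was lost under DESeq2 (adjusted p = 0.0621) and in 5 of the fits without 1 sample, and that of *Lce1h* with CpG in 4 of them.

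Between *Kirrel* and *Ptgfrn* the smaller same-way differences touched genes of many functions. *Kirrel*, *Gpatch4*, *Apoa1bp* and, further down, *Etv3*, *Gpsm2* and *Tbx15* were picked out after their values were seen. *Gpatch4* (start 88043108), a nucleolar protein gene and the next of these genes after *Nes*, had 12.3, 11.1 and 12.6 CPM in control B6 and 6.24, 6.18 and 6.78 CPM in control SjSS samples. Its log2 fold changes were -0.91, -1.33 and -1.19 (adjusted p = 4.23e-06, 1.62e-09 and 7.54e-08). *Iqgap3*, a scaffold of dividing cells, differed by -0.79, -0.83 and -1.41 (adjusted p = 0.00274, 0.000503 and 1.31e-05). Together with *Apoa1bp* (-0.36, -0.28 and -0.54), these made a run from *Nes* to *Iqgap3* in which each of 4 successive genes differed the same way in all 3 comparisons, *Nes* higher and the other 3 lower.

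*Ctsk* (start 95499256) encodes cathepsin K, a lysosomal collagen-degrading protease best known from osteoclasts. It was at 2.83, 2.32 and 2.66 CPM in control B6 and 1.11, 1.54 and 1.12 CPM in control SjSS samples, and at 1.87, 1.68 and 2.5 against 0.72, 0.642 and 0.776 CPM with CpG. The log2 fold changes were -1.07 in control, -0.82 with ACs and -1.50 with CpG (adjusted p = 0.0005, 0.00127 and 3.27e-05). The nearby *Ctss*, the abundant cathepsin S of antigen presenting cells, was at 1390 to 1580 CPM in control B6 and 1580 to 1730 CPM in control SjSS samples, a log2 fold change of 0.12 (adjusted p = 0.28).

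Of the 13 lysosomal genes listed, all in the set, 2 were higher and 3 lower in control by adjusted p, 6 were higher and 4 lower with ACs, and 1 was higher and 3 lower with CpG. Over all genes tested, 9.04% were higher and 10.6% lower in control, 24.0% and 25.5% with ACs, and 10.2% and 9.57% with CpG. *Sort1*, the sorting receptor sortilin, had log2 fold changes of -0.73, 0.17 and -0.51 (adjusted p = 4.72e-08, 0.0163 and 3.64e-06) and thus changed direction with ACs. *Ctso*, a cathepsin, was slightly higher in each treatment (0.27, 0.55 and 0.41).

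The S100 genes lie within this stretch and encode small calcium-binding proteins, of which 9 of 12 listed were in the set. By adjusted p, 3 were higher and 2 lower in control, 3 and 3 with ACs, and 4 and 3 with CpG. Over all genes it was 9.04% and 10.6% in control, 24.0% and 25.5% with ACs, and 10.2% and 9.57% with CpG. *S100a10*, the partner of annexin A2, was higher in SjSS in each treatment. It was at 35.9, 36.3 and 39.2 CPM in control B6 and 52.9, 56.7 and 50.4 CPM in control SjSS samples, with log2 fold changes of 0.52, 0.77 and 0.69 (adjusted p = 0.000414, 5.8e-07 and 2.28e-05). *S100a4* and *S100a6* were higher in SjSS in control and CpG and lower with ACs. *S100a4* differed by 0.71, -0.56 and 0.66 (adjusted p = 0.00113, 0.00184 and 0.00231) and *S100a6* by 0.67, -0.31 and 0.82 (adjusted p = 0.000194, 0.0176 and 2.42e-05). In B6 BMDMs, ACs raised *S100a4* by 1.40 on the log2 scale, with 0.13 in SjSS, and *S100a4* shares 49.19% of its words with other genes, among them the overlapping *Gm42674*.

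*S100a9*, which encodes a subunit of the neutrophil protein calprotectin, was near the floor. Control B6 samples held 74 counts and control SjSS samples 2, a ratio of 31.8 in favour of B6 with an exact 95% interval of 8.5 to 267 that covers counting error only. It was called lower in control (log2 fold change -4.78, adjusted p = 0.0152) and with CpG (-4.31, adjusted p = 0.00894), and the control call was lost without SjSS control replicate 2 or 3. CpG treated B6 samples had 0.161, 0.506 and 1.78 CPM, and without the third of them the call was lost (adjusted p = 0.074). Its interaction with AC of 6.42 rested on SjSS AC replicate 2, which alone of the AC treated SjSS samples had counts, and was 1.3 without it (adjusted p = 0.888). The neutrophil markers *Prtn3*, *Camp* and *Ngp* together reached at most 2.48 CPM, in CpG treated B6 samples, and their part in these differences was not tested. With CpG, *S100a16* was called higher (1.78, adjusted p = 0.00781). *S100a8*, also in the set, was not near the floor. It had 169, 175 and 250 counts, not scaled to depth, in control B6 and 161, 98 and 137 in control SjSS samples. With ACs it had 167, 158 and 150 in B6 and 89, 118 and 82 in SjSS samples. With CpG it had 423, 417 and 396 in B6 and 204, 188 and 210 in SjSS samples. *S100a11* had 2670, 2103 and 2802 counts in control B6 and 1788, 1106 and 1984 in control SjSS samples.

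Before *Kirrel*, the 10 same-way genes were scattered. *P2ry1* (start 61002795), a receptor for ADP, was among the largest. It had 3.49, 2.63 and 2.42 CPM in control B6 and 10.8, 10.5 and 13.2 CPM in control SjSS samples. With CpG it had 1.29, 1.57 and 1.7 CPM in B6 and 7.17, 7.63 and 9.32 CPM in SjSS samples, and with ACs 1.71, 1.04 and 1.36 CPM in B6 and 2.45, 2.27 and 1.88 CPM in SjSS samples. The difference was thus wide in control (log2 fold change 2.01, adjusted p = 1.77e-07) and CpG (2.41, adjusted p = 4.7e-08) and narrow with ACs (0.69, adjusted p = 0.00815). The interaction with AC was -1.32 (SE 0.26, adjusted p = 0.000557), close to the limit on the fold, and was not past it under DESeq2 (-1.3) or in 5 of the fits without 1 sample. *P2ry1* shares 22.46% of its words with an overlapping gene on the other strand, *Gm37035*, which held at most 24 counts in a group.

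The neighbours of *Il2* are of interest because Idd3 was mapped to them. *Il2* itself had a total of 12.2 counts over all samples and is not among the 408 genes. Of 17 genes listed there, 11 were in the set, with 0 higher and 2 lower in control by adjusted p, 2 higher and 5 lower with ACs, and 0 higher and 5 lower with CpG. Called by the fold as well were 1 in control, 0 with ACs and 1 with CpG, each time *Cetn4*. By adjusted p, 9.04% of all genes were higher and 10.6% lower in control. With ACs it was 24.0% and 25.5%, and with CpG 10.2% and 9.57%. *Exosc9* (start 36552606), a subunit of the RNA exosome, was lower in SjSS throughout. It was at 28.6, 28.5 and 25.9 CPM in control B6 and 18.7, 18.7 and 15.5 CPM in control SjSS samples, with log2 fold changes of -0.65, -0.62 and -0.63 (adjusted p = 5.54e-06, 1.03e-06 and 5.76e-06). The difference was thus of nearly the same size in each treatment. *Exosc9* shares 9.87% of its words with *Ccna2*, whose exons it overlaps on the other strand.

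*Cetn4* (start 37307749), a centrin gene of the centrosome and cilia, was lower by -1.35, -1.26 and -1.46 (adjusted p = 0.0323, 0.0206 and 0.0286) at levels of at most 0.833 CPM. Its exons overlap those of *Bbs12* on the other strand, and whether reads were counted by strand is not given in the sources used here. *Bbs12*, a chaperonin-like gene of ciliary trafficking, was at 2.48, 2.9 and 2.68 CPM in control B6 and 3.63, 3.49 and 2.18 CPM in control SjSS samples, which overlap. With ACs it was at 1.09, 1.04 and 1.11 CPM in B6 and 0.439, 0.357 and 0.471 CPM in SjSS samples (log2 fold change -1.36, adjusted p = 0.000128), and its interaction with AC was -1.56 (SE 0.31, adjusted p = 0.000516). *Ankrd50*, which acts in endosomal recycling, differed by -0.11, -1.25 and -0.68 (adjusted p = 0.289, 4.35e-11 and 2.12e-06).

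The interaction of strain and AC, which compares the AC response of SjSS with that of B6, was called for 26 of the 408 genes (6.37%, against 7.53% of all genes), 21 positive and 5 negative, where 4.76% and 2.77% of all genes were called. By adjusted p alone it was 42.6% of them (37.9% of all genes, 19.6% positive and 18.3% negative). It used the control samples of both strains, as the control comparison did. Within B6, ACs raised 10 of the genes and lowered 13 (5.64% called, against 4.47% of all genes, 2.43% raised and 2.04% lowered), and within SjSS they raised 22 and lowered 12 (8.33%, against 12.9%, 7.09% raised and 5.83% lowered). Of the 21 positive genes, 16 rose with ACs in SjSS by adjusted p, 10 fell with ACs in B6 and 5 rose in B6. The choice by a positive interaction favours such counts, which are a description. The 21 lay in 7 of the 8 bins, with 8 of them at 100 to 110 Mb, where same-way differences were rare.

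Receptors of the P2Y family sit together from *Gpr171* (start 59096448) to *P2ry12* (start 59216272), within the body of *Med12l* and on the other strand from it, with exons of *P2ry12* overlapping those of *Med12l*. P2Y receptors sense extracellular nucleotides, and *P2ry12* and *P2ry13* are receptors for ADP and *P2ry14* for UDP-glucose and related sugars. With *Gpr171*, a related receptor, and *P2ry1*, all 5 listed genes were in the set, and all 5 were higher in AC treated SjSS BMDMs by adjusted p (3 called). In control 1 was higher and 1 lower, and with CpG 2 were higher and 1 lower. Over all genes tested, 24.0% were higher with ACs by adjusted p, and 6.24% were called higher. In control 9.04% of all genes were higher and 10.6% lower, and with CpG 10.2% and 9.57%. *P2ry13* was at 22.6, 21 and 16.2 CPM in control B6 and 14.4, 13.1 and 14.2 CPM in control SjSS samples. With ACs it was at 4.73, 5.15 and 5.39 CPM in B6 and 16.9, 18.1 and 18.5 CPM in SjSS samples. With CpG both strains were low, at 4.45 to 6.11 and 2.49 to 3.26 CPM. ACs lowered it in B6 (log2 fold change -1.97, adjusted p = 7.3e-10) and raised it slightly in SjSS (0.36, adjusted p = 0.0159), and the interaction was 2.33 (SE 0.17, adjusted p = 5.46e-09).

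*P2ry12* went with it, with log2 fold changes of -2.16 in B6 and -0.75 in SjSS after ACs and an interaction of 1.41 (SE 0.18, adjusted p = 4.19e-06). *P2ry14* was at 6.63, 8.47 and 7.21 CPM in control B6 and 9.49, 8.46 and 9.72 CPM in control SjSS samples. With ACs it was at 4.57, 5.28 and 6.26 CPM in B6 and 21.3, 20.5 and 20.9 CPM in SjSS samples, an interaction of 1.64 (SE 0.20, adjusted p = 3.07e-06). *Gpr171* was at 0.0993 to 0.669 CPM in AC treated B6 and 1.68 to 3.37 CPM in AC treated SjSS samples (interaction 1.79, adjusted p = 0.0174). After CpG the interaction was called for none of the 5 genes.

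Among 16 genes of innate sensing and cytokine signalling in the set, 4 were called higher and none lower with ACs, where 6.24% and 2.69% of all genes were. By adjusted p 8 were higher and 5 lower with ACs, where 24.0% and 25.5% of all genes were. In control none was called, and by adjusted p 4 were higher and 4 lower. With CpG none was called higher and 1 lower, and by adjusted p 2 were higher and 3 lower. Over all genes, by adjusted p, 9.04% were higher and 10.6% lower in control, and 10.2% and 9.57% with CpG. The 4 called with ACs were *Adar*, *Mov10*, *Tiparp* and *Il12a*. *Tiparp* (start 65528410), a mono-ADP-ribosyltransferase induced through the aryl hydrocarbon receptor, was at 38.9, 38.5 and 29.9 CPM in control B6 and 31.2, 32.4 and 26 CPM in control SjSS samples, which overlap. With ACs it was at 66.9, 64 and 73.5 CPM in B6 and 209, 212 and 222 CPM in SjSS samples, a log2 fold change of 1.66 (adjusted p = 2e-10). It rose with ACs in both strains, and more in SjSS, by an interaction of 1.92 (SE 0.15, adjusted p = 9.55e-09).

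*Adar* edits adenosines in double-stranded RNA and *Mov10* is an antiviral RNA helicase, and both are known to be induced by interferon. *Adar* was at 88.9 to 91.4 CPM in control B6 and 110 to 119 CPM in control SjSS samples, and at 128, 134 and 129 CPM in AC treated B6 and 379, 368 and 406 CPM in AC treated SjSS samples. The log2 fold changes were 0.33 (adjusted p = 0.0127) and 1.56 (adjusted p = 3.75e-11). *Mov10* was at 31.7, 35.9 and 32.2 CPM in AC treated B6 and 119, 113 and 124 CPM in AC treated SjSS samples (1.84, adjusted p = 8.13e-10). With CpG neither gene passed the test (-0.16 and -0.10, adjusted p = 0.223 and 0.662). *Adar* shares 15.38% of its words with the overlapping gene *Chrnb2* on the other strand, and *Mov10* shares 12.39% with *Gm7357*.

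*Tlr2* (start 83836272), the receptor for bacterial lipopeptides, was lower in control SjSS, with 137, 155 and 107 CPM, than in control B6, with 262, 278 and 262 CPM (log2 fold change -1.01, adjusted p = 2.73e-06). With ACs the order turned, with 710, 868 and 890 CPM in B6 and 1240, 1350 and 1280 CPM in SjSS samples (0.65, adjusted p = 4.44e-05). The interaction was 1.66 (SE 0.15, adjusted p = 5.61e-08). With CpG the B6 samples were at 554 to 597 CPM and the SjSS samples at 614 to 737 CPM, and the difference of 0.23 did not pass the test (adjusted p = 0.135).

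Other genes with a positive interaction included *Etv3* (start 87525407), a repressor of the ETS family. It was at 111, 119 and 117 CPM in control B6 and 176, 188 and 153 CPM in control SjSS samples, and at 113, 120 and 135 CPM in AC treated B6 and 518, 489 and 521 CPM in AC treated SjSS samples. It was therefore both a same-way gene (log2 fold changes 0.57, 2.05 and 0.67) and one with an interaction of 1.48 (SE 0.10, adjusted p = 1.68e-09). *Gpsm2*, which orients the mitotic spindle and modulates G proteins, was at 9.88, 9.35 and 8.85 CPM in control B6 and 8.55, 10.2 and 9.43 CPM in control SjSS samples. With ACs it was at 11, 10.4 and 10.8 CPM in B6 and 49.9, 52.3 and 53.9 CPM in SjSS samples (log2 fold change 2.28, adjusted p = 5.49e-14). *Rapgef2*, an activator of Rap GTPases, rose with ACs by 0.99 in B6 and 2.81 in SjSS (interaction 1.81, adjusted p = 2.7e-08).

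Some genes of low level had larger interactions by fold. *Ankrd35* (3.04, SE 1.05, adjusted p = 0.028) had 0.421 to 0.875 CPM in AC treated SjSS samples and at most 0.127 CPM in any control sample, and its interaction was lost in 5 of the fits without 1 sample. *Ccdc39*, a gene of motile cilia, had 0.189 to 0.417 CPM in AC treated B6 and 1.56 to 2.53 CPM in AC treated SjSS samples (2.75, SE 0.45, adjusted p = 8.14e-05), and shares 15.37% of its words with *Ttc14*, which it overlaps on the other strand. *I830077J02Rik* had 1.65 to 2.57 CPM and 7.59 to 8.1 CPM in the same groups (2.59, SE 0.32, adjusted p = 2.86e-06).

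*Cd5l* (start 87357881) differed in the opposite direction. It encodes a secreted scavenger receptor-like protein of macrophages, also called AIM. Control samples had 462, 439 and 521 CPM in B6 and 309, 290 and 344 CPM in SjSS. AC treated samples had 1380, 1250 and 1070 CPM in B6 and 399, 375 and 386 CPM in SjSS, while CpG treated samples had 442, 386 and 478 CPM and 315, 260 and 317 CPM. *Cd5l* thus rose with ACs in B6 (log2 fold change 1.38) and much less in SjSS (0.30), and the strain difference was -0.59, -1.68 and -0.55 (adjusted p = 0.000402, 1.09e-10 and 0.00067). Its interaction of -1.08 (adjusted p = 6.86e-06) lay under the limit on the fold. *Dennd2c* passed it, with an interaction of -1.39 (SE 0.35, adjusted p = 0.00383), at 1.59 to 2.36 CPM in AC treated B6 and 0.568 to 0.785 CPM in AC treated SjSS samples.

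**Figure D5:**
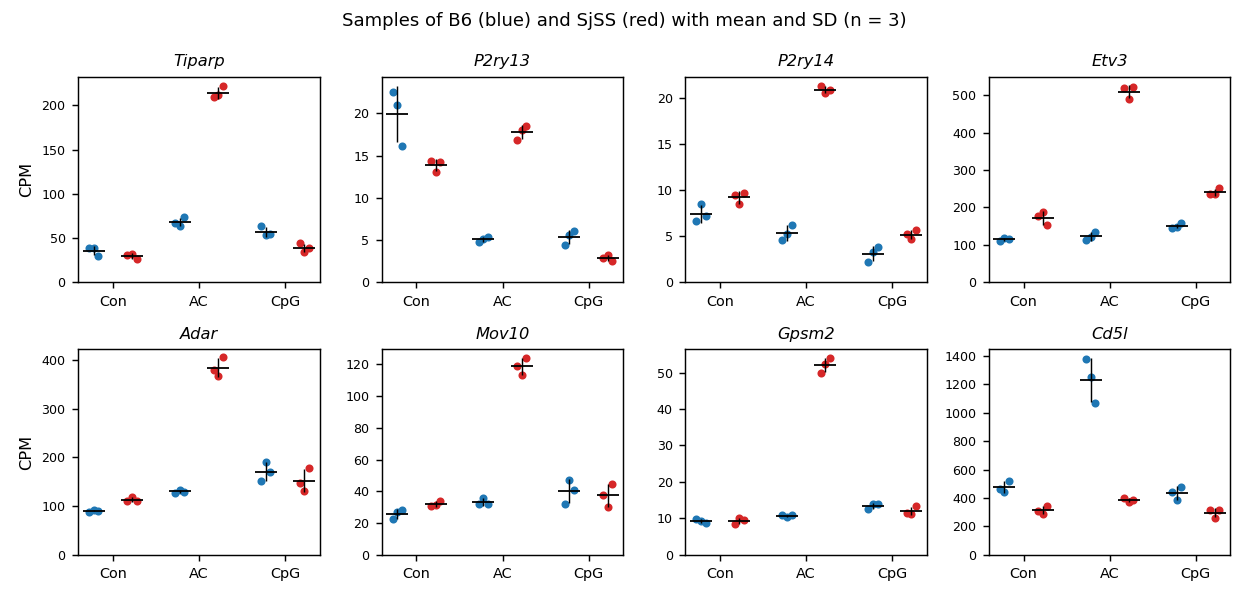
CPM of 8 genes in each sample of B6 (blue) and SjSS (red) in control, AC and CpG, with the mean and SD of 3 samples. *Tiparp*, *P2ry13*, *P2ry14*, *Etv3*, *Adar*, *Mov10* and *Gpsm2* were higher in SjSS with ACs, where the strains did not overlap, and *Cd5l* was at 1070 to 1380 CPM in AC treated B6 and 375 to 399 CPM in AC treated SjSS samples.

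CpG raised 11 and lowered 24 of the genes in B6 (8.58% called, against 12.7% of all genes, 5.86% raised and 6.88% lowered) and raised 12 and lowered 21 in SjSS (8.09%, against 9.26%, 4.81% raised and 4.45% lowered). The interaction of strain and CpG was called for 2 genes, both positive (0.49%, against 0.614% of all genes, 0.285% positive and 0.329% negative), and by adjusted p alone it was 8.09% of the genes (5.85%, 3.23% positive and 2.62% negative). None was called negative by edgeR, where 3 genes passed the fold at an unadjusted p under 0.05, and DESeq2 called 0 and had 2 such genes. *Fcrl5* (start 87435773), an Fc receptor-like gene known from B cells, was at 2.88, 4.96 and 4.96 CPM in control B6 and 1.18, 0.976 and 1.32 CPM in control SjSS samples. With CpG it was at 27.2, 35.1 and 38.3 CPM in B6 and 53.6, 36 and 63.1 CPM in SjSS samples, which overlap. It was called lower in control (log2 fold change -1.84, adjusted p = 0.00022) and with ACs (-1.41, adjusted p = 6.9e-05), and its interaction with CpG was 2.45. B lineage markers, of which *Cd79b* held most counts, summed to 9.41 to 26.8 CPM over all samples, and their part in the *Fcrl5* values was not tested. *Fam46c* (start 100451628), a poly(A) polymerase, was at 59.8 to 83.9 CPM in control B6 and 64.7 to 92.7 CPM in control SjSS samples, and fell with CpG to 6.93, 9.59 and 11.1 CPM in B6 and to 33.6, 28.2 and 22.3 CPM in SjSS samples. Its interaction with CpG was 1.42 (adjusted p = 0.00148) and with AC 1.46 (adjusted p = 4.09e-05). The first lost its place past the fold in 4 of the fits without 1 sample.

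*Il12a*, which encodes the p35 subunit of IL-12, was the 1 gene called in opposite directions in different treatments. Control samples were at or next to 0, with 0 counts in B6 and 1 in SjSS. AC treated samples had at most 0.0397 CPM in B6 and 0.0673 to 0.252 CPM in SjSS (log2 fold change 2.29, adjusted p = 0.00882). With CpG, B6 samples had 1.96, 1.36 and 1.13 CPM and SjSS samples 0.72, 0.445 and 0.48 CPM (-1.43, adjusted p = 0.0165).

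*Chil3*, which encodes the chitinase-like protein Ym1 of alternatively activated macrophages, was lower in SjSS in control and CpG. It was at 1.26, 1.15 and 0.835 CPM in control B6 and 0.276, 0.325 and 0.145 CPM in control SjSS samples (log2 fold change -2.15, adjusted p = 0.000276). With ACs the B6 samples fell to 0.401 to 0.435 CPM, the strains overlapped and the difference did not pass the test (-0.34, adjusted p = 0.462). The interaction was 1.81 (SE 0.51, adjusted p = 0.00859). *Chil3* shares 41.5% of its words with other genes, mainly *Chil4*. *Slc7a11*, the cystine transporter that feeds glutathione synthesis, rose with ACs and CpG in both strains. With CpG it reached 819, 618 and 635 CPM in B6 and 289, 319 and 254 CPM in SjSS samples (-1.27, adjusted p = 2.67e-06), whereas with ACs it was higher in SjSS (0.51, adjusted p = 0.00412). Of the 8 listed genes of glutathione, redox and chitinase-like function in the set, 5 were lower in control, 3 higher with ACs and 4 lower with CpG by adjusted p, with none in the other directions. Over all genes tested, 10.6% were lower in control, 24.0% higher with ACs and 9.57% lower with CpG by adjusted p.

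Several genes higher in SjSS are known from mesenchymal cells, and were gathered after their values were seen, not from a list. *Postn*, the matrix protein periostin, was at 14.5, 5.28 and 9.43 CPM in control B6 and 14.4, 20.6 and 15.6 CPM in control SjSS samples, which overlap, and at 9.13, 8.16 and 7.62 CPM against 16.6, 23.2 and 23 CPM with ACs. Its log2 fold changes were 0.78, 1.34 and 1.09 (adjusted p = 0.0454, 0.0004 and 0.00714). *Tbx15*, a T-box factor of mesenchyme, differed by 1.27, 1.20 and 1.94 (adjusted p = 0.00445, 0.00175 and 0.000271), and *Kirrel*, an adhesion protein, by 0.87, 0.96 and 0.95 (adjusted p = 0.0459, 0.0126 and 0.0374). *Thbs3*, a thrombospondin, had 0.128, 0.167 and 0.16 CPM in control B6 and 0.7, 0.887 and 0.616 CPM in control SjSS samples (2.25, adjusted p = 0.00116), and overlaps *Mtx1* on the other strand. Within control B6, replicate 2 was the lowest sample for *Postn*, *Kirrel* and *Tbx15*, but not for *Thbs3*. Replicate 2 was also the lowest CpG treated B6 sample for the first 3 genes. In counts not scaled to depth, the CpG treated B6 samples had 584, 211 and 432 for *Postn*. They had 153, 37 and 145 for *Kirrel*, and 21, 6 and 27 for *Tbx15*. The summed level of the stromal markers, carried mostly by *Col1a1* and *Col1a2*, was 45.1 to 136 CPM in control B6 and 167 to 232 CPM in control SjSS samples, and its part in these differences was not tested.

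Of 10 genes listed under cell division in the set, 0 were higher and 2 lower in control by adjusted p (9.04% and 10.6% of all genes). These were *Iqgap3* and *Exosc9*, the latter a subunit of the RNA exosome. With ACs 2 were higher and 4 lower (24.0% and 25.5% of all genes), and with CpG 0 and 2 (10.2% and 9.57%). With CpG 1 of the 10 was called lower, as were 0.792% of all genes. Of 16 genes of small GTPases and G proteins, 2 were higher and 5 lower in control (9.04% and 10.6% of all genes). Only *Gnb4* was called, in all 3 treatments. *Gnai3*, a G protein alpha subunit, was at 159 to 173 CPM in control B6 and 130 to 160 CPM in control SjSS samples, with a difference of -0.17 that did not pass the test (adjusted p = 0.0849). Of 13 genes of transport and metabolism none was called. *Phgdh*, the first enzyme of serine synthesis, came nearest, with log2 fold changes of 0.97, 1.17 and 1.05 (adjusted p = 0.0119, 0.000529 and 0.00613), and shares 56.3% of its words with other genes. Of 10 leukocyte surface genes, 6 were lower and 0 higher in control by adjusted p, with 2 called, *Ptgfrn* and *Fcrl5* (9.04% of all genes were higher and 10.6% lower). With ACs 3 were higher and 4 lower, with 3 called lower, and with CpG 2 were higher and 5 lower, with 1 called lower. Over all genes it was 24.0% and 25.5% with ACs, with 2.69% called lower. With CpG it was 10.2% and 9.57%, with 0.792% called lower.

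The bins with few differences are described by their leading genes. At 40 to 50 Mb these were *Larp1b*, an RNA-binding protein gene (log2 fold changes 0.21, 0.81 and 0.39, adjusted p = 0.314, 4.86e-05 and 0.0442), and *Slc7a11*. At 70 to 80 Mb they were *Serpini1*, the protease inhibitor neuroserpin (1.22 with ACs and 1.41 with CpG, adjusted p = 0.0356 and 0.0321), *Fam198b* (1.02 and 1.15, adjusted p = 9.14e-05 and 0.000201) and *Ppid*, a cyclophilin (-0.73 with ACs, adjusted p = 9.05e-06). *Larp1b*, *Serpini1*, *Fam198b* and *Ppid* did not pass the test in control. At 60 to 70 Mb *Schip1* was called with ACs (1.79, adjusted p = 0.00335), and at 80 to 90 Mb *Fhdc1*, a formin, with ACs and CpG (1.34 and 1.5, adjusted p = 0.00136 and 0.00231). Both were low, at most 2.33 CPM for *Schip1* and 2.22 CPM for *Fhdc1*. *Schip1* shares 39.05% of its words with other genes and overlaps *Iqschfp* on the same strand.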

How the data were processed

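RNA-seq was performed on 18 BMDM samples in 6 groups of 3. Per the labels and the study's methods, the authors aligned reads with STAR to mm10 and quantified genes in Partek by an expectation-maximisation method, and deposited estimated counts that were not normalized. Values were not whole in 41.1% of cells (tolerance 1e-06) and were rounded. The submitters' processing notes name DESeq2 3.13. Whether counting used strand is not given in the sources used here.

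All genes kept by filterByExpr were fitted in edgeR 4.0.16 (R 4.3.3, limma 3.58.1) with TMM scaling, 1 mean per group and 6 groups sharing 1 estimate of the spread. The glmQLFTest p values were adjusted by Benjamini-Hochberg over all genes tested. CPM used TMM-scaled totals. The script was tested on simulated data. DESeq2 1.42.0 and the other alternatives are given in the closing section.

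Words of 31 bases shared between genes were counted from GENCODE M21 transcripts. Genes named were those called in all 3 comparisons, the largest in each comparison, interaction and bin, members of gene lists, and those at the limits of the choice. The genes, lists and tests were chosen with earlier results of these data known. The model had no block for the column numbers, and the closing section gives the fits that have one.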

Additional observations from a re-analysis of the deposited data

Results flagged for a closer look

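The genes below responded to a treatment differently in the 2 strains by the interaction term of the edgeR fit, with adjusted p and size past the limits. Values are log2 differences, the response of SjSS less that of B6. With ACs, the difference was 1.68 for *Gnb4*, 1.81 for *Chil3*, 1.46 for *Fam46c*, 1.79 for *Gpr171* and 1.64 for *P2ry14*. It was 2.75 for *Ccdc39*, 2.59 for *I830077J02Rik* and 3.04 for *Ankrd35*, which are of low level. It was -1.39 for *Dennd2c*, -1.56 for *Bbs12* and -1.32 for *P2ry1*.

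*Lce1h* had a difference of -4.31 with ACs (adjusted p = 0.0375) that rests on 0 counts in control B6 samples, so that its size depends on the prior count and is no bound. *S100a9* had 6.42 with ACs, carried by SjSS AC replicate 2, and 1.3 without it. With CpG, the difference was 2.45 for *Fcrl5* and 1.42 for *Fam46c*.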

How the results depend on the processing

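The limit on the fold moved the counts most. Without it, 54 genes were higher and 74 lower in control, 118 and 115 with ACs, and 68 and 69 with CpG, with 46, 67 and 44 in the fullest bin. The AC interaction then had 97 and 77, the CpG interaction 21 and 12, the mean difference 103 and 104, and 44 genes differed in all 3 comparisons. With a limit of 1, the fullest AC bin held 16, the AC interaction had 12 negative, the CpG interaction 6 positive and 1 negative, and the mean difference 25 higher. With a limit of 2, the counts were 7 and 4 in control, 13 and 1 with ACs, 8 and 3 with CpG, 6 and 1 for the AC interaction, 1 positive for the CpG interaction, 8 and 3 for the mean difference, and 6 in all 3.

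With a total of at least 360, 6 genes were higher in control (4 in the fullest bin), 11 with CpG (6 in the fullest bin) and 7 by the mean difference. In 5 Mb bins the fullest CpG bin held 7. With at most 10% shared words, a choice made after seeing the data, 6 were higher and 5 lower in control, 19 were higher with ACs and 10 with CpG, 3 had a negative AC interaction, 7 and 4 differed by the mean, and 5 in all 3. The fullest bin was then at 30 to 40 Mb in control (3) and CpG (4), so that the place of the fullest bin by calls depends on genes with copies. The 90 to 100 Mb share of same-way genes was 14.9% under the same limit. With the copy's reads added, *Tpm3* turned to 0.01 in control and 0.34 with ACs.

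Leaving out 1 sample in turn gave 10 to 14 higher and 6 to 8 lower in control (8 to 10 in the fullest bin), 28 to 32 and 7 to 10 with ACs (9 to 11), and 11 to 18 and 7 to 11 with CpG (9 to 12), where 11 came without B6 CpG replicate 2. The AC interaction had 17 to 22 positive and 2 to 6 negative, with 2 without SjSS control replicate 3 and 3 without B6 control replicate 2. The CpG interaction had 1 to 3 and 0 to 1, with 1 positive without B6 control replicate 1, SjSS control replicate 3 or SjSS CpG replicate 1, and 1 negative without B6 CpG replicate 2. The mean difference had 13 to 17 and 5 to 7, and 9 to 13 were called in all 3. Same-way genes by adjusted p numbered 28 with only the compared groups in each fit (10 at 90 to 100 Mb) and 46 under DESeq2, beside 44. The cause of these moves was not tested.

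Same-numbered samples of the 2 strains within a treatment did not deviate together (correlations -0.07 to 0.02), whereas all 18 pairs of the same strain and number were positive (0.02 to 0.26, 8 over 0.1), beside -0.25 to 0.07 for other numbers of the same strain. All 3 pairs of B6 control and CpG samples were over 0.1 (0.14 to 0.26). This is a hint from the data, and the labels give no pairing. A replicate block gave 46 same-way genes and left each count of called genes within 1.5 times. A block of strain and number moved interactions by adjusted p from 174 to 193 genes for AC and from 33 to 48 for CpG, and, in a fit added after seeing the data, gave as many called genes for each treatment in each strain (11 and 24 for CpG in B6). Genes under about 1 CPM, such as *Lce1h*, *Cgn* and *S100a9*, rest on few counts.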
